A study of Homo sapiens with 2 samples.

Results

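The genes described here build the actin cytoskeleton or belong to the SRF transcription factor system that controls it, and were measured in HUCCT-1, a cell line established from a human intrahepatic cholangiocarcinoma (a cancer of the bile ducts inside the liver). The set holds 39 genes listed by symbol, and all 39 were found by symbol and NCBI gene number among the 16654 genes of the deposited table. Poly(A)-selected RNA was sequenced after 48 h (2 days) with vehicle or with 5 μM XY101, a RORγ antagonist, in RPMI1640 medium with serum. The values come from 1 vehicle library and 1 XY101 library, so no test was possible, and every difference below describes that pair of libraries of a single cell line. The level of a gene is given as FPKM (fragments normalised to transcript length and to the size of the library), as made by the authors. The ratio of a gene is log2((XY101 + 0.1)/(vehicle + 0.1)), with 0.1 FPKM as pseudocount, and fold differences are on that same scale, which understates differences of genes at low levels.

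Actin monomers assemble into filaments that myosin II motors pull on, that tropomyosin and calponin-family proteins coat, that α-actinin and filamin cross-link, and that vinculin, talin and LIM-domain proteins tie to integrin adhesions. Monomeric actin also binds the coactivators MRTFA and MRTFB and holds them inactive. When filaments form, the coactivators are released, enter the nucleus and activate SRF at CArG boxes, and many of the genes that SRF then activates encode actin and its partners. Ternary complex factors of the ELK family are the other class of SRF partners and serve growth factor responsive genes.

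A CArG box is the DNA element that SRF binds, a run of A and T bases between a pair of C and a pair of G bases. It was searched without mismatch in RefSeq promoter windows (build GRCh38.p14) that run from 250 bases before to 50 bases after each annotated start. The element is its own reverse complement, so both strands were read at once. Windows were matched for 37 of the 39 genes, and those of MYL9 and TAGLN were not matched. A CArG box was present for 8 of these 37 genes (21.6%), against 438 of all 27305 genes with a window (1.60%) and 149 of 8975 genes with a window and a mean of at least 1 FPKM (1.66%). Many of these genes have several annotated starts, and counted by window the share was 10 of 75 (13.3%) against 1.29% of all 35116 windows. The set is defined in part by SRF targets, so its share is not independent of how it was chosen. Among related lists described below, 2 of 11 TCF-class genes, 3 of 17 other LIM and stress-fibre genes and 2 of 15 other adhesion plaque genes held a box. All 3 other actin genes with a window, ACTA1, ACTC1 and ACTG2, held one, and none of them passed 0.10 FPKM in these libraries. Other Arp2/3, filament turnover, cross-linker and tubulin genes held none. The 8 genes of the set with a box were ACTG1, TPM4, CNN2, ACTN1, FLNA, LPP, FHL2 and SRF itself. The 200 bases before the start are printed below for SRF and for the genes of this group with the higher levels, 5′ to 3′ on the strand of the gene, with CArG boxes in capitals. For FHL2, the gene of this group with the lowest ratio, both the distal and the proximal start are shown.
SRF (chr6:43171069-43171268, plus strand): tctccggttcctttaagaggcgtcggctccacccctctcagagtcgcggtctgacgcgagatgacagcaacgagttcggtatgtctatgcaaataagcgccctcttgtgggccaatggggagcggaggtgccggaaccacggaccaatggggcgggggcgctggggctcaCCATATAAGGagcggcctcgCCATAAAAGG
ACTG1 (chr17:81512800-81512999, minus strand): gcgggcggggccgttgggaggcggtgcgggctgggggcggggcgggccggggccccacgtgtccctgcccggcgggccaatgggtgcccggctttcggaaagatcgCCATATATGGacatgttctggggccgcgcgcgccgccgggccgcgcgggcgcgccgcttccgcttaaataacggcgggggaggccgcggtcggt
FHL2, first start (chr2:105438530-105438729, minus strand): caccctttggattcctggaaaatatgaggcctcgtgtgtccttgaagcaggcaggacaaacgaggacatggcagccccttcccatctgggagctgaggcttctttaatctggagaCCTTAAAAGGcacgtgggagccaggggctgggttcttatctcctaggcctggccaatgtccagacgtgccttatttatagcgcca
FHL2, second start (chr2:105399052-105399251, minus strand): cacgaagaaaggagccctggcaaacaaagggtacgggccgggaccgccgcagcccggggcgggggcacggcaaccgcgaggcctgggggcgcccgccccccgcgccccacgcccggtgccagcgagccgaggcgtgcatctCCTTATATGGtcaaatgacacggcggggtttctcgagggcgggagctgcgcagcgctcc
CNN2 (chr19:1026408-1026607, plus strand): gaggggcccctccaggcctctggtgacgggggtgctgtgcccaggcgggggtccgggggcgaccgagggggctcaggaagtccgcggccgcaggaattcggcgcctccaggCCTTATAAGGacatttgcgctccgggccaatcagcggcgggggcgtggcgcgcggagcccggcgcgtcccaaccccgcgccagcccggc
FLNA (chrX:154374635-154374834, minus strand): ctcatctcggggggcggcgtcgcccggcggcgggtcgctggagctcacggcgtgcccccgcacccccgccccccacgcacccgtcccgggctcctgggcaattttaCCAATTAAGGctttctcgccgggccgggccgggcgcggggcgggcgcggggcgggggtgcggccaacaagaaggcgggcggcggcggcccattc
TPM4 (chr19:16067338-16067537, plus strand): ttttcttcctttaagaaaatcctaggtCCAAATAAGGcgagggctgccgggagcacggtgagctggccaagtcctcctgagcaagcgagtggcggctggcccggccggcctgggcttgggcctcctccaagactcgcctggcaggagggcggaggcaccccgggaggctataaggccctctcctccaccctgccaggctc
ACTN1 (chr14:68977567-68977766, minus strand): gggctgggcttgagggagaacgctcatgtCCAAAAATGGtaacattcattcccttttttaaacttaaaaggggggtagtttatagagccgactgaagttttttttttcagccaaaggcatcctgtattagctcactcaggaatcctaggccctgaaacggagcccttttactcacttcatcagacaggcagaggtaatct

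SRF carries a pair of CArG boxes directly before its start, from 30 to 21 and from 10 to 1 bases upstream. ACTG1 and FLNA each hold 1 box from 94 to 85 bases upstream, and CNN2 holds 1 from 89 to 80 bases upstream. In TPM4 the box lies from 173 to 164 and in ACTN1 from 171 to 162 bases upstream. FHL2 has a different box at each of the shown starts, from 85 to 76 bases before the first and from 59 to 50 bases before the second. Another annotated FHL2 start lies close to the first, and the same box is from 101 to 92 bases upstream of it. The hexamer AGGTCA, the core bound by ROR receptors, was also searched on both strands of the same windows. It occurred for 7 of the 37 genes (18.9%), against 16.5% of all genes with a window and 13.6% of those at a mean of at least 1 FPKM. A match is a description of letters in these windows and not a measured site.

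**Figure D1:**
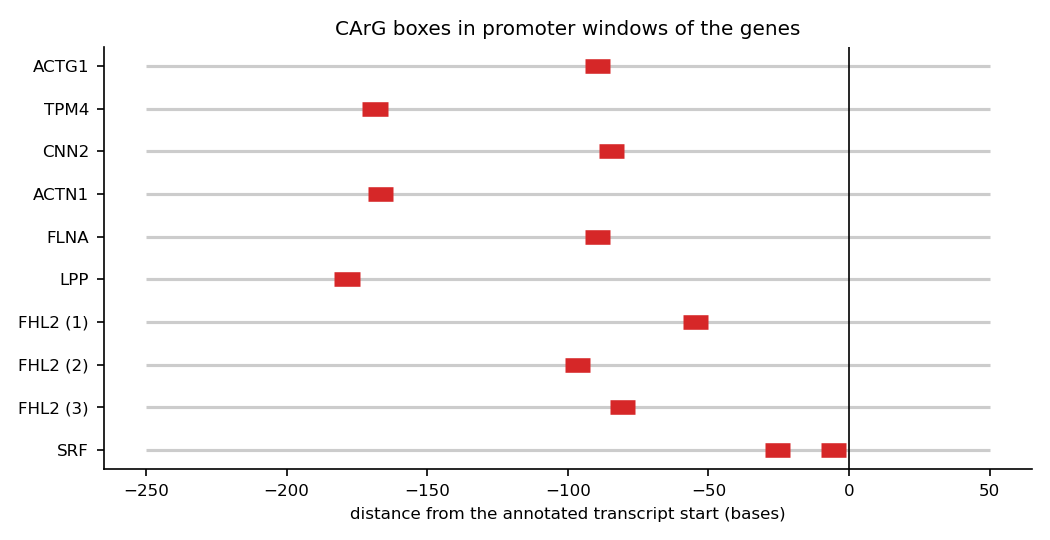
Positions of CArG boxes (red) in promoter windows of the 8 genes that hold one, in bases from the annotated transcript start, with each window drawn from 250 bases before to 50 bases after it; numbers in brackets separate the windows of FHL2. All boxes lie upstream of the start, and those of SRF are the closest to it.

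As the files show them, the libraries had similar FPKM sums and numbers of genes above 0. FPKM summed to 858282 with vehicle and 832820 with XY101, and 14666 and 14719 genes were above 0. FPKM are already normalised to library size, so these sums do not measure it. The spacing of low FPKM values gave an approximate depth of 17750000 fragments for each library. The scan started from 602 low values with vehicle and 590 with XY101. Only those that came to a few fragments, with a small rounding error, were scored. Of the values scored at that depth, 85.6% with vehicle and 81.1% with XY101 were within 0.2 of a whole number of fragments. That margin by itself covers 40.0%. Over the 10894 genes with a mean of at least 1 FPKM, the median ratio was 0.09, so a ratio of 0 already lies below the middle of these libraries. The biliary epithelial markers KRT7, KRT8, KRT18, KRT19, EPCAM and SOX9 were all present, from 7.41 to 5080 FPKM. Of the smooth muscle markers none passed 0.07 FPKM, and MYH11 and CASQ2 were listed at 0 in both libraries.

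Together the 39 genes held 1.82% of all FPKM with vehicle and 1.67% with XY101. All 39 were above 0 in both libraries, and 37 had a mean of at least 1 FPKM, the minimum used for counts. Of these, 4 exceeded a mean of 1000 FPKM, 16 lay between 100 and 1000, 12 between 10 and 100 and 5 between 1 and 10. The forms best known from smooth muscle were scarce, namely ACTA2, TAGLN, MYL9 and CNN1. CNN1 was 0.05 FPKM in both libraries, and MYH10, which encodes the heavy chain of non-muscle myosin IIB, was 0.05 and 0.10 FPKM, and neither was counted further.

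**Figure D2:**
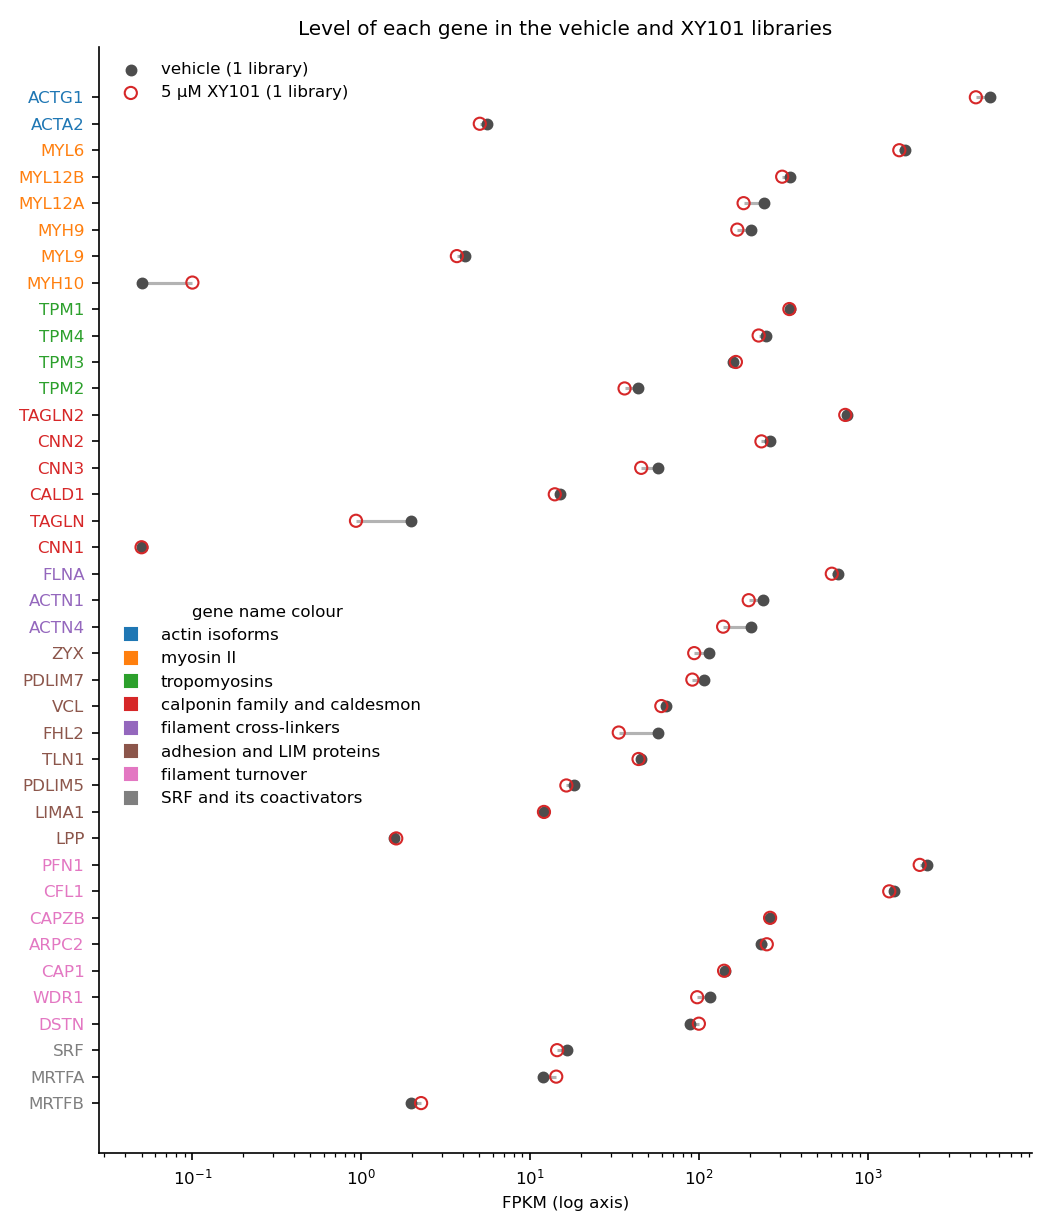
FPKM of each of the 39 genes on a log axis, grouped by role, with the vehicle library as a filled and the XY101 library as an open point. Levels range from 0.05 FPKM for CNN1 to 5245 FPKM for ACTG1, and for most genes the open point sits slightly to the left of the filled one.

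The general pattern was a small difference in 1 direction. Of the 37 genes at a mean of at least 1 FPKM, 30 had a ratio below 0 and 7 above 0, while 35.3% of all genes at that level lay below 0. Relative to the median gene, 33 of 37 lay below, where 50% of all genes do by construction. The median ratio of the 37 genes was -0.14, with quartiles of -0.26 and -0.01, against a median of 0.09 and quartiles of -0.08 and 0.26 over all genes. Few of the genes differed strongly. At least 1.5-fold lower were 2 of 37, TAGLN and FHL2, against 2.32% of all genes, and none was at least 1.5-fold higher, against 4.9% of all genes. By at least 20%, 5 of 37 were lower, against 7.51% of all genes. By at least 25%, the same distance on the log scale, none was higher, against 18.9% of all genes, and the other 32 lay between these limits. Only TAGLN was at least 2-fold lower, against 0.698% of all genes.

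Most of these genes are abundant, and abundant genes as a whole had lower ratios in these libraries. The median over all genes was 0.15 between 1 and 10 FPKM, 0.08 between 10 and 100, -0.01 between 100 and 1000 and -0.09 above 1000. The medians of the actin and SRF genes in the same classes were -0.13 over 5 genes, -0.13 over 12, -0.14 over 16 and -0.14 over 4. Their distance from the other genes was thus smallest in the top class, where 70.2% of all 131 genes lay below 0 and all 4 of ACTG1, PFN1, MYL6 and CFL1 did. At a mean of at least 50 FPKM, 21 of 24 lay below 0 against 48.9% of 1886 genes. At that level 3 of 24 were at least 20% lower against 7.58% of all genes, and none was at least 25% higher against 6.52%.

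**Figure D3:**
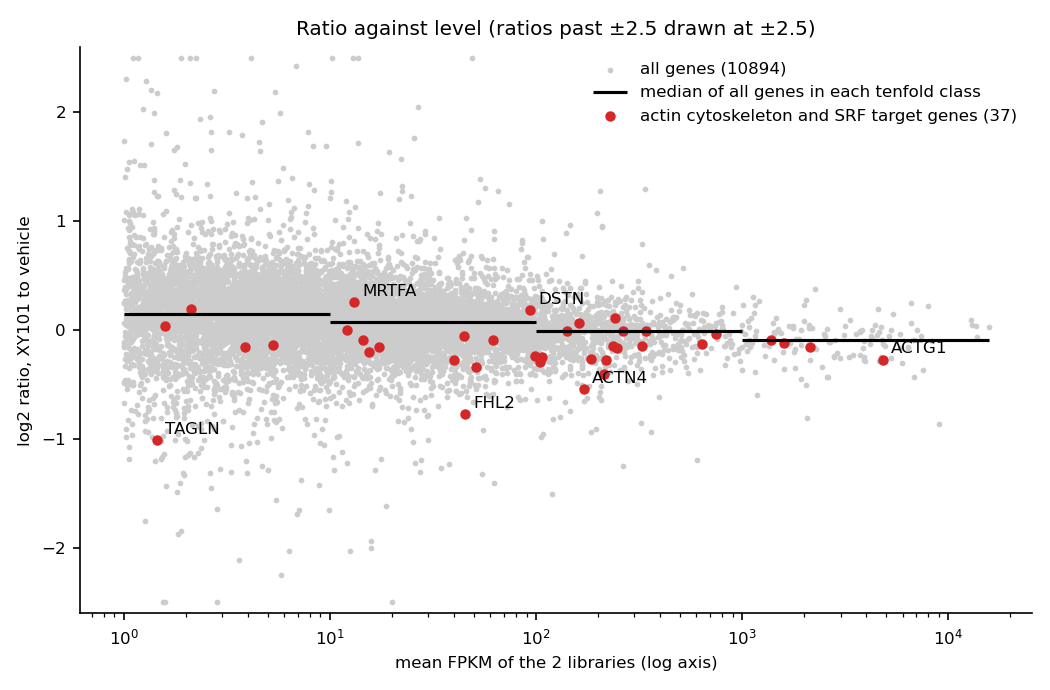
Log2 ratio of XY101 to vehicle against the mean FPKM (log axis), with all genes at a mean of at least 1 FPKM in grey, the 37 actin cytoskeleton and SRF target genes in red and horizontal bars for the median of all genes in classes from 1 to 10, 10 to 100, 100 to 1000 and above 1000 FPKM. The grey medians decline from 0.15 to -0.09 while the red points centre on -0.14, with TAGLN and FHL2 farthest below.

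Among the actin isoforms, ACTG1, which encodes cytoplasmic γ-actin, was at 5245.14 FPKM in the vehicle library and 4349.76 FPKM in the XY101 library. This is 1.21-fold lower, a ratio of -0.27. The 95% counting interval of that ratio, the exact binomial interval from the approximate fragment numbers, ran from -0.28 to -0.26. Such intervals cover counting error only, not differences between cultures. ACTA2, the smooth muscle α-actin, was 5.52 and 5.03 FPKM, with an interval from -0.51 to 0.23 that includes 0. Reads of ACTG1 may be affected by 21 annotated pseudogenes in RefSeq. No exact 100-base window of its longest coding transcript occurred in another gene. Annotated pseudogenes also exist for other genes of the set, among them CNN2 (11), PFN1 (10), TPM3 (9), CFL1 (8), MYL6 (5) and DSTN (4). The division of reads is thus uncertain for these genes too. No such window of CNN2, CFL1 or MYL6 occurred in another gene, while 3.4% did for PFN1, 3.1% for TPM3 and 0.64% for DSTN. For ACTA2, 18.9% of the windows also lie in another annotated gene model. The other cytoplasmic actin gene, ACTB, is not one of the 39 and was 7858.41 and 5837.60 FPKM, a ratio of -0.43. ACTB and ACTG1 together took 1.53% of all FPKM with vehicle and 1.22% with XY101, and the share of ACTG1 within that sum was 40.0% and 42.7%. β-actin is a common reference for quantitative PCR, and the values here are not relative to it.

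All 5 counted genes of myosin II, the motor that contracts actin filaments, had ratios below 0. Of all genes at a mean of at least 1 FPKM, 35.3% lay below 0. The share was 52.5% between 100 and 1000 FPKM and 70.2% above 1000, the classes that hold most of these myosin genes. MYL12A, which encodes a regulatory light chain, measured 242.49 FPKM in the vehicle library and 183.37 FPKM after XY101, 1.32-fold lower with an interval from -0.49 to -0.32. Its paralog MYL12B was 343.33 and 310.25 FPKM, a smaller ratio of -0.15 with an interval from -0.21 to -0.09. At the median transcript length their intervals do not overlap (with the shortest transcripts they do), and the transcripts of this pair share no exact 100-base window. MYH9, the heavy chain of non-muscle myosin IIA, was 201.73 and 168.28 FPKM, a ratio of -0.26. MYL6, the essential light chain, was 1665.59 and 1531.56 FPKM, a ratio of -0.12. MYL9, a regulatory light chain abundant in smooth muscle, was 4.11 and 3.68 FPKM, and its interval from -0.56 to 0.23 includes 0.

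The tropomyosins, which lie along actin filaments and set which other proteins bind, differed among themselves. TPM2 was 43.66 and 36.19 FPKM, 1.21-fold lower, and TPM4 was 248.29 and 225.13 FPKM, a ratio of -0.14. TPM1, the most abundant of the 4, was 344.23 and 342.27 FPKM, with a counting interval from -0.06 to 0.04. TPM3 was 157.74 and 165.08 FPKM, a ratio of 0.07. Its counting interval, from -0.01 to 0.15, includes both 0 and the ratio of the median gene. The genes of this family make many spliced forms, which values per gene do not separate.

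In the calponin family the lowest ratio of all 37 genes was that of TAGLN, which encodes transgelin (SM22α), a classical SRF target. TAGLN was at 1.97 FPKM in the vehicle library and 0.93 FPKM after XY101, 2.01-fold lower (ratio -1.01), and 0.670% of all genes had a lower ratio. The level is low, about 32 fragments against 15, and the counting interval ran from -2.10 to -0.18. With the shortest coding transcript in place of the median length the interval ran from -7.48 to 1.87. In addition, 65.1% of the 100-base windows of its longest coding transcript also lie in another annotated gene model, so its counted reads are uncertain. CNN3 was 57.37 and 45.40 FPKM, 1.26-fold lower, with an interval from -0.44 to -0.23. CNN2 was 262.05 and 233.85 FPKM (ratio -0.16), and CALD1, the gene of caldesmon, 14.92 and 13.98 FPKM (ratio -0.09). TAGLN2, the abundant non-muscle relative of TAGLN, was 753.35 and 733.16 FPKM, only 1.03-fold lower. The counting interval of CALD1, from -0.29 to 0.10, includes 0, and that of TAGLN2 just reaches it.

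The 3 cross-linkers had the lowest group median among the structural groups, -0.27. ACTN4, which encodes α-actinin-4, was at 202.37 FPKM in the vehicle library and 138.73 FPKM after XY101, 1.46-fold lower with an interval from -0.58 to -0.51, and 2.74% of all genes had a lower ratio. ACTN1, the gene of α-actinin-1, was 237.94 and 196.64 FPKM, 1.21-fold lower. FLNA, which encodes filamin A, was 667.27 and 610.30 FPKM, 1.09-fold lower. At the median transcript length the ACTN4 interval lies below those of ACTN1 and FLNA, and with the shortest transcripts it overlaps that of ACTN1.

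Among the 8 adhesion and LIM-domain genes, FHL2 stood lowest. FHL2, which encodes a LIM-only protein that binds SRF and other transcription factors, was at 56.99 FPKM in the vehicle library and 33.44 FPKM after XY101, 1.70-fold lower. The ratio was -0.77 with a counting interval from -0.90 to -0.64, and 1.29% of all genes had a lower ratio. ZYX, the gene of the stress-fibre protein zyxin, was 114.31 and 93.54 FPKM (1.22-fold lower), and PDLIM7 107.25 and 91.19 FPKM (1.18-fold lower). PDLIM5 was 18.28 and 16.37 FPKM, with an interval from -0.34 to 0.02. The core plaque genes differed less, with VCL (vinculin) at 63.65 and 59.73 FPKM and TLN1 (talin-1) at 45.52 and 43.79 FPKM. LIMA1 was 12.05 and 12.06 FPKM and LPP 1.56 and 1.61 FPKM, for which no difference was detectable at this depth.

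The genes of filament turnover were centred near 0, with a median of -0.01 over 7 genes. WDR1, which encodes a cofactor of cofilin, was 115.50 and 97.39 FPKM, 1.19-fold lower. PFN1, the gene of profilin, which delivers actin monomers to growing ends, was 2245.96 and 2022.84 FPKM (ratio -0.15), and CFL1, the gene of the severing protein cofilin, 1418.05 and 1335.39 FPKM (ratio -0.09). CAP1 was 141.41 and 140.55 FPKM and CAPZB, a subunit of the capping protein, 263.91 and 263.11 FPKM. On the other side, ARPC2, a subunit of the branching Arp2/3 complex, was 233.33 and 251.55 FPKM, and DSTN, the gene of destrin, 87.81 and 99.67 FPKM, 1.13-fold higher with an interval from 0.12 to 0.25. DSTN and CFL1 encode related depolymerising proteins and had ratios of opposite sign, with intervals that do not overlap.

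SRF and its coactivators also had ratios of opposite sign. SRF was at 16.56 FPKM in the vehicle library and 14.43 FPKM after XY101, 1.15-fold lower with a counting interval from -0.32 to -0.08. MRTFA was 11.93 and 14.26 FPKM, 1.19-fold higher with an interval from 0.12 to 0.40, and had the highest ratio of the 37 genes. With its shortest coding transcript the interval ran from -0.44 to 1.02 and includes 0. MRTFB was 1.96 and 2.26 FPKM, a ratio of 0.20 with an interval from -0.30 to 0.69. Together with DSTN and ARPC2, the coactivator genes were the only ones of the 37 above the median gene. RNA levels of MRTFA and MRTFB say nothing of their location in the cell, through which they are controlled.

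**Figure D4:**
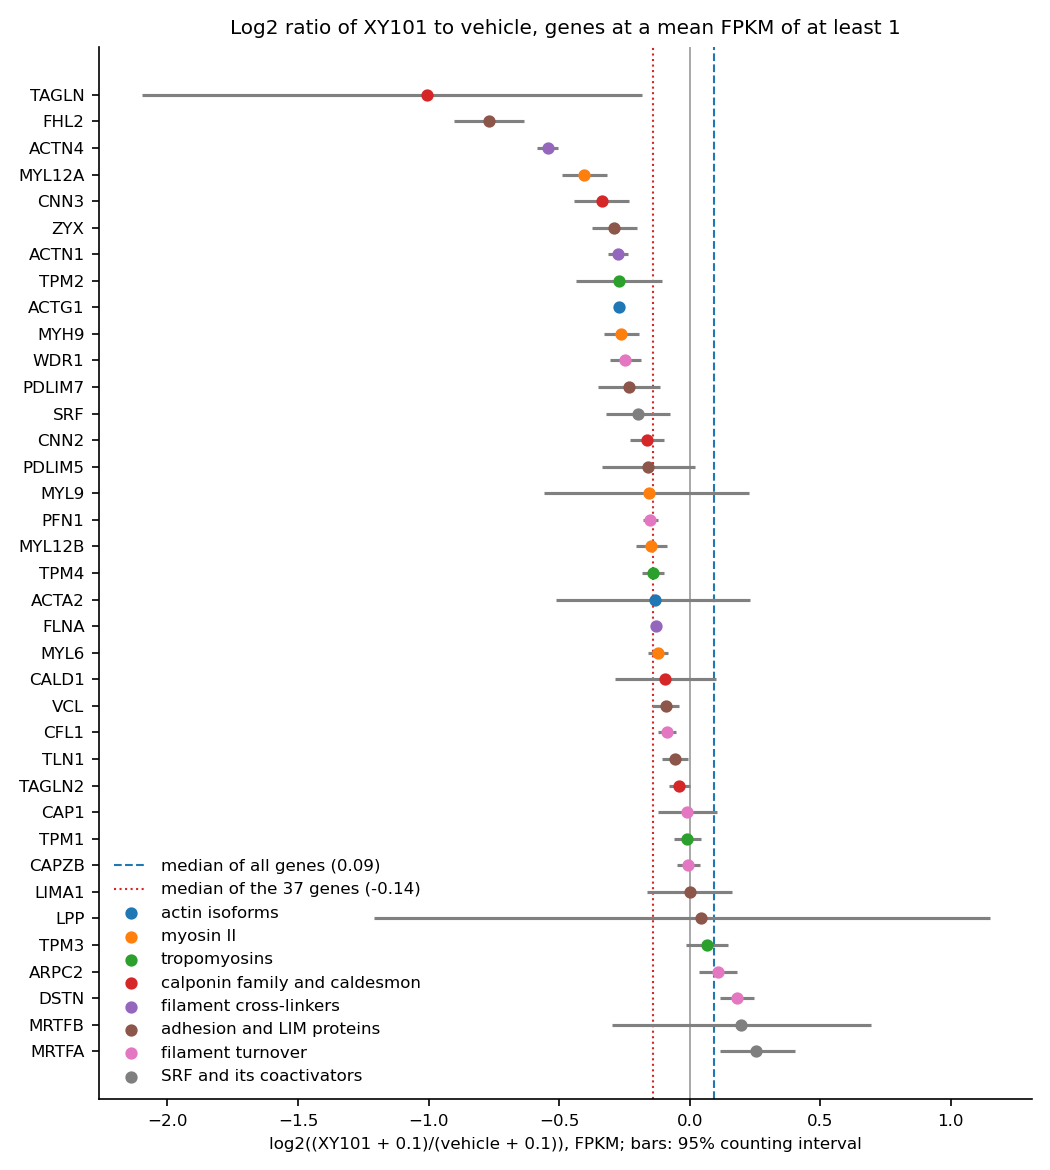
Log2 ratio of each of the 37 genes at a mean of at least 1 FPKM, coloured by role and ordered from lowest to highest, with bars for the 95% counting interval at the median coding transcript length, a dashed line at the median of all genes (0.09) and a dotted line at the median of the 37 (-0.14). TAGLN, FHL2, ACTN4 and MYL12A lie lowest, and only ARPC2, DSTN, MRTFB and MRTFA lie to the right of the dashed line.

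The genes with a CArG box in their windows were compared with those without, as a description. The 8 genes with one had a median ratio of -0.18, with 7 below 0 and a range from -0.77 (FHL2) to 0.04 (LPP). The 27 counted genes with a window and no box had a median of -0.09, with 21 below 0 and a range from -0.54 (ACTN4) to 0.26 (MRTFA). The ranges overlap from -0.54 to 0.04. Of all genes at a mean of at least 1 FPKM, 35.3% lay below 0, with a higher share among abundant genes. TAGLN, with the lowest ratio of the set, and MYL9 had no matched window and are in neither group. SRF, with a pair of boxes, had a ratio of -0.20 and ACTG1, with 1, of -0.27, with counting intervals that overlap.

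To set these values in their pathway, 143 further genes were grouped in 10 lists that share no gene with the 39, of which 142 were in the table. The largest contrast was with other target genes of the MRTF class. Of 12 such genes at a mean of at least 1 FPKM, 10 lay below 0, against 35.3% of all genes at that level. A difference of at least 1.5-fold was seen for 7 of the 12, all lower with XY101. Of all genes, 2.32% were at least 1.5-fold lower. The median of the list was -0.64. Its genes were chosen with earlier results of these data known, so its share is not independent of these data. CCN1, a secreted matricellular protein gene, was at 842.66 FPKM in the vehicle library and 368.03 FPKM after XY101, 2.29-fold lower. ANKRD1, the gene of a nuclear ankyrin-repeat protein, was 177.32 and 62.55 FPKM (2.83-fold lower), and HBEGF, an EGF family ligand gene, 77.75 and 31.15 FPKM (2.49-fold lower). F3, the tissue factor gene, was 1.80-fold, CCN2 1.79-fold, AMOTL2 1.58-fold and TUFT1 1.53-fold lower. ITGB1, the integrin β1 gene, was 333.12 and 400.63 FPKM, higher with XY101. CCN1, CCN2, ANKRD1 and AMOTL2 are known as targets of YAP and TEAD as well, so this list is not specific to SRF. Of its 11 genes with a promoter window, 2 held a CArG box, FILIP1L and SMTN, at ratios of -0.30 and -0.49.

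A further list joined the ternary complex factor genes ELK1, ELK3 and ELK4 with target genes of that class. Of its 11 counted genes, 5 were below and 6 above 0, with a median of 0.13, while 35.3% of all genes lay below 0. ELK1 was 41.19 and 37.59 FPKM, ELK3 14.78 and 13.94 FPKM, and ELK4 2.28 and 2.99 FPKM, and the other 8 genes of the list are targets. The immediate early gene IER3 was 386.97 and 330.46 FPKM, and JUNB was 132.51 and 151.10 FPKM. The orphan receptor gene NR4A1 was 4.95 and 3.08 FPKM, 1.59-fold lower. FOS was 1.72 and 3.26 FPKM, 1.85-fold higher, with a counting interval from 0.01 to 1.90 at this low level. EGR1, with a pair of CArG boxes in its window, was 19.29 and 22.58 FPKM.

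Genes that assemble and dismantle filaments lay nearer to the median gene. The other 8 Arp2/3 subunit genes had a median of 0.04 and none passed 1.5-fold, with ARPC3 at 213.46 and 217.77 FPKM and ARPC1A at 166.39 and 156.66 FPKM. The other 17 turnover genes had a median of 0.08 and none passed 1.5-fold. Over all genes 2.32% were at least that much lower and 4.9% higher. The most abundant turnover genes encode the actin monomer-binding thymosins, TMSB10 at 7525.74 and 7236.72 FPKM and TMSB4X at 6434.39 and 6729.48 FPKM.

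Other adhesion plaque genes had a median of 0.13 over 16 genes. PXN, the paxillin gene, was 134.29 and 120.16 FPKM, ILK was 87.15 and 93.49 FPKM, and ENAH, which encodes a filament elongation factor, was 3.38 and 5.39 FPKM, 1.58-fold higher. Other cross-linkers and membrane linkers had a median of 0.10 over 15 genes, with LASP1 at 242.01 and 244.42 FPKM and FSCN1 (fascin) at 215.43 and 191.27 FPKM. Of the 15, 2 genes were at least 1.5-fold lower, against 2.32% of all genes. These were FLNC, the gene of filamin C, at 23.64 and 15.56 FPKM and LCP1, the gene of L-plastin, at 6.90 and 3.86 FPKM. Other LIM and stress-fibre genes lay on the same side as the 37, with a median of -0.08. Of these, 10 of 14 were below 0, against 35.3% of all genes. In this list PDLIM1 was 454.61 and 361.15 FPKM, CSRP1 180.49 and 160.46 FPKM, and PDLIM2 30.46 and 17.40 FPKM, 1.75-fold lower.

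The direction was not limited to actin genes among abundant structural genes. Tubulin genes, which form microtubules, had a median of -0.17 over 11 genes, 7 of them below 0 and none past 1.5-fold. The share below 0 was 35.3% over all genes at a mean of at least 1 FPKM and 70.2% over those above 1000 FPKM. TUBA1B was 2012.63 and 1586.11 FPKM and TUBB 1130.18 and 990.04 FPKM. The members of this family are close in sequence, and how their reads were divided is not settled. Of the 6 biliary epithelial markers, 5 were below 0, with KRT7 at 5080.23 and 4184.91 FPKM and SOX9 at 14.61 and 7.41 FPKM, and their FPKM summed to 9956 with vehicle and 8326 with XY101. EPCAM was 254.18 and 275.12 FPKM. The 6 fibroblast markers summed to 8.34 and 11.51 FPKM, led by COL1A1 at 7.01 and 9.82 FPKM, with DCN at 0.03 FPKM and then listed at 0. Endothelial and leukocyte markers summed to 64.30 and 47.87 FPKM, nearly all of it CD68 at 63.58 and 47.17 FPKM, while PTPRC was 0.02 FPKM and then listed at 0. The part of these shifts in the values of the actin genes was not tested. Both libraries are of a single cell line, so the markers describe levels in that line and not a mix of tissue cells. Bulk RNA does not show whether a value differed in all cells or in some.

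**Figure D5:**
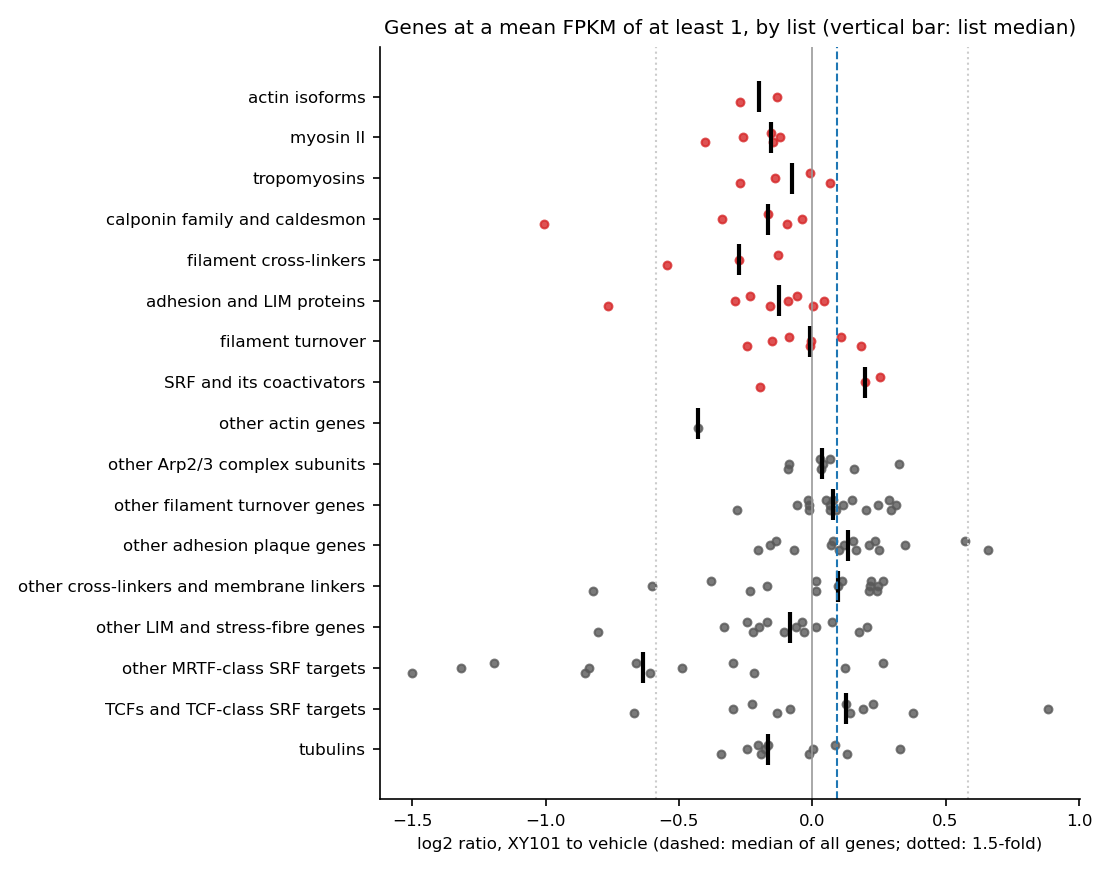
Log2 ratios of single genes at a mean of at least 1 FPKM, for the roles within the 37 genes (red) and for related lists (grey), with a vertical bar at each list's median, a dashed line at the median of all genes (0.09) and dotted lines at 1.5-fold. The other MRTF-class targets reach from -1.50 to 0.27 with a median of -0.64, whereas the roles within the 37 genes have medians from -0.27 to 0.20.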

How the data were processed

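The deposited table covers 1 vehicle library (titled Con2) and 1 library treated with 5 μM XY101; the treatment label also names GSK805, which was not analysed here. The values deposited by the authors are FPKM rounded to 2 decimals. The study's methods give TruSeq libraries, GRCh37/hg19, BWA, Bowtie 2 and RSEM, and the submitters' processing notes and protocol name KAPA libraries, GRCh38, HISAT2, HTSeq 0.11.2, DESeq2 and limma 3.40.6, so how reads were divided between similar genes is not settled. Of 17424 rows, 770 carry no gene but text of an annotation and were dropped. Per gene, a log2 ratio with a pseudocount of 0.1 FPKM was computed, and genes at a mean of at least 1 FPKM were counted past 1.5-fold. No test was run with 1 library per condition.

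Low FPKM of genes with a single coding transcript (GENCODE) were turned into fragments over a grid of depths and offsets to transcript length. The lowest depth whose share of whole numbers came close to the highest share was found. At or just above that depth, the pair with the highest share was kept, so a higher depth may have scored higher. This gave 17750000 fragments and offsets of 300 and 290 nt. Fragment numbers and 95% exact binomial (Clopper-Pearson) intervals used the median coding transcript length. Exact 100-base windows of transcripts were compared between genes. List genes were matched by symbol (204 of 205). Named genes were all 39 members and, in each related list, the pair of highest mean FPKM and all genes past 1.5-fold. EGR1, the ELK genes, FILIP1L, SMTN, EPCAM, DCN and other genes named for a CArG box or as a marker were named after their values were seen. Of the 10 related lists, 1 is not reported here. The genes and lists were chosen with earlier results of these data known. Steps were tested on simulated data. Alternatives covered pseudocount, filter, threshold, scaling, centring, similar copies and transcript length. Calculations ran in Python 3.11.15 with numpy 2.4.6, pandas 2.3.3 and scipy 1.17.1, and plots were drawn with matplotlib 3.10.9.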

Additional observations from a re-analysis of the deposited data

How the results depend on the processing

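Across 36 combinations of the 4 summary values and their alternatives, 29 did not move. For the median, moving meant leaving the counting interval of the median gene of the set, and for counts a change by over 1.5 times. The median ratio stayed below 0 in every alternative, and counts have no direction that could change. The median ratio of the set was -0.10 when each library was scaled to the same sum (TPM) and -0.23 when centred on the median gene. The number of genes at least 1.5-fold lower was 2, but 1 at a mean of at least 5 FPKM, 0 at a mean of at least 50 FPKM, 5 with a limit of 20% lower and 1 at 2-fold. Below the median gene were 33 of 37, or 21 of 24 at a mean of at least 50 FPKM. The same scaling put CAP1, CAPZB, TAGLN2 and TPM1 above 0, leaving 26 of 37 below, and centring put LIMA1, LPP and TPM3 below, making 33. Counting intervals changed in width by over 1.5 times in 37 of 76 cases when the shortest or longest coding transcript was taken, because the lengths behind the FPKM are not in the file. No replicate could be left out and no paired analysis was possible because each condition has 1 library.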
